A study of Mus musculus with 18 samples.

Results

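The genes described here are Nfe2l2, which encodes the transcription factor NRF2, and 9 genes of redox metabolism that are known targets of NRF2, in small intestinal crypts of mice with induced deletion of Prmt1. They were found in the count table by gene name, as 10 genes of the 55335 in it, and each name matched 1 gene. All 10 passed the filter on low counts that left 21349 genes for testing. The genes were chosen by their values in earlier results of these data, the KO against WT differences on days 7 and 14, so those differences are given below as descriptions without a test. The RNA-Seq data came from 18 libraries of crypts, 1 per mouse, in 6 groups of 3, and total counts ranged from 12844642 to 31493484 per library. KO mice (PRMT1 fl/fl;Vil-CreERT2) carried LoxP sites in both copies of Prmt1 and a tamoxifen-activated Cre recombinase under the villin promoter, which is active in intestinal epithelium. WT mice were littermates with the same LoxP sites and no Cre (PRMT1 fl/fl). Mice of both genotypes were 8 to 12 weeks old and received 2 mg tamoxifen a day from day 0. There were 2 injections before collection on day 2 and 5 injections before collection on days 7 and 14. The controls thus shared the floxed alleles and the drug but not Cre. Loss of Prmt1 and Cre activity therefore cannot be told apart in the KO against WT differences. Crypts were purified as a bulk preparation that holds several cell types. Sex was matched in the study but was not used here.

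NRF2 is a transcription factor of the antioxidant response. It is held at a low level by KEAP1, an adaptor that brings it to a ubiquitin ligase, and when it is released it pairs with small MAF proteins (MAFF, MAFG, MAFK) at antioxidant response elements, DNA sites that the repressor BACH1 also binds. Its known targets include reductases that detoxify carbonyls and quinones (Cbr1, Cbr3, Nqo1), enzymes of the thioredoxin and sulfiredoxin systems (Txnrd1, Srxn1), the cystine transporter Slc7a11, and the enzymes that supply NADPH to these reactions (G6pdx and Pgd of the pentose phosphate pathway and malic enzyme Me1). In the intestine such enzymes act on compounds from food and bile as well as on oxidants made by the cells.

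On the mm10 assembly the genes lay on 8 chromosomes. Cbr1 (chr16:93605853-93610505) and Cbr3 (chr16:93683215-93690990), paralogs that encode carbonyl reductases, lay 72710 bases apart on the forward strand. Nfe2l2 (chr2:75675513-75704641, reverse strand) and Srxn1 (chr2:152105516-152111376, forward strand) shared chromosome 2. The others were Slc7a11 (chr3:49892526-50443614), Pgd (chr4:149149991-149166771), Nqo1 (chr8:107388225-107403206), Me1 (chr9:86581371-86695953) and G6pdx (chrX:74409483-74429194) on the reverse strand and Txnrd1 (chr10:82833951-82897712) on the forward strand. Fragments were counted for every gene they overlap and without regard to strand. G6pdx overlaps Ikbkg on the opposite strand, which had a mean of 43.2 CPM (the count scaled to the size of its library) beside 53.6 CPM for G6pdx, so reads from their shared part cannot be told apart. Txnrd1 overlaps 3 genes, the most abundant at a mean of 11.04 CPM beside 275.1 CPM for Txnrd1.

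The core of the antioxidant response element, TGACNNNGC, was searched on both strands in the RefSeq promoter windows of build GRCm38.p6, each of 300 bases from 250 before to 50 after an annotated transcription start. It was found in the windows of 6 of the 10 genes, Nfe2l2 itself among them, and in those of 3781 of the 27025 genes in that table (14.0%). Counted by window, 6 of the 14 windows of the 10 genes and 12.4% of all 32851 windows held it. The 6 matches are shown because they hold the letters of the site that NRF2 is known to bind. By the gene positions above, that of Nfe2l2 lies outside the gene and the others lie inside. All 6 are printed 5′ to 3′ on the strand of the gene with 10 bases on each side, and capitals mark the 9 bases of the core. In G6pdx, Srxn1 and Txnrd1 the core reads on the opposite strand, so the capitals there show its reverse complement.
Nfe2l2, chr2:75704885-75704913, reverse strand: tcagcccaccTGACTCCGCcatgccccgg
Me1, chr9:86695902-86695930, reverse strand: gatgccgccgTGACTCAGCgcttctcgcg
Pgd, chr4:149166061-149166089, reverse strand: atttcagagcTGACATTGCactgatcgga
G6pdx, chrX:74428919-74428947, reverse strand: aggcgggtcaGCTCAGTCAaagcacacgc
Srxn1, chr2:152105542-152105570, forward strand: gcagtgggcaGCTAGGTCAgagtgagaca
Txnrd1, chr10:82859104-82859132, forward strand: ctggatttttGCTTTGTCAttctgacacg
With the first transcribed base as position 1, the cores began at position -240 for Nfe2l2, -92 for Txnrd1, -57 for G6pdx, -6 for Me1, 4 for Pgd and 29 for Srxn1. Pgd, Txnrd1 and Me1 have more than 1 annotated start, and only 1 window of each held a match. The windows of Cbr1, Cbr3, Nqo1 and Slc7a11 held none, which says only that these letters are not within them. A match is not evidence of binding.

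Cbr3 had the largest KO against WT difference of the 10 genes and its neighbor Cbr1 a smaller one, so the 100 bases before the RefSeq start of each (GRCm38.p6) are shown for comparison, in lower case because no motif is marked.
Cbr3, chr16:93683119-93683218, forward strand: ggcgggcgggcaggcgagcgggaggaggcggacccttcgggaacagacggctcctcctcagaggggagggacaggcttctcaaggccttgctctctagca
Cbr1, chr16:93607737-93607836, forward strand: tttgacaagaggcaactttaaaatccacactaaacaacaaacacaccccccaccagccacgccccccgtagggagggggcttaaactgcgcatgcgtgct
Of the 100 bases, 69 were G or C before Cbr3 and 54 before Cbr1, with 7 and 4 CG dinucleotides. By the gene positions above, the stretch of Cbr1 lies inside the gene. That of Cbr3 lies before its gene except for its last few bases, so these stretches are not alike in position.

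The targeted gene was checked in every library. Prmt1 had 13.1 to 17.4 CPM in the 9 KO libraries and 20.2 to 30.6 CPM in the 9 WT libraries, and the genotypes did not overlap on any day. Its log2 difference was -0.89 ± 0.14 (SE) on day 2, -0.59 ± 0.14 on day 7 and -0.72 ± 0.14 on day 14 (adjusted p = 0.0264, 0.00675 and 0.00329). Here and throughout the test was the quasi-likelihood test of edgeR, with p-values adjusted by Benjamini-Hochberg over all 21349 genes, and a gene past 0.05 is said to be called. The libraries held epithelial RNA. The summed level of 5 epithelial markers was 3908 to 8429 CPM, against 34.4 to 91.5 CPM for 7 immune markers and 10.3 to 146 CPM for 6 stromal markers.

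In WT crypts the 10 genes covered a wide range of levels. Levels of different genes are compared as CPM per kb of gene length, the mean over the 9 WT libraries with its SD. Nfe2l2 was highest at 41.8 ± 7.20 CPM per kb, followed by Srxn1 at 35.6 ± 13.01, Txnrd1 at 32.6 ± 5.83 and Cbr1 at 27.1 ± 9.77. Pgd followed at 23.2 ± 4.08, Nqo1 at 19.9 ± 5.06 and G6pdx at 15.1 ± 3.32. In this order each gene from Nfe2l2 to Nqo1 differed from the next by less than the sum of their SDs. Below them Me1 had 4.33 ± 1.96 CPM per kb, Cbr3 0.798 ± 0.422 and Slc7a11 0.179 ± 0.106, and these steps were larger than the summed SDs. Cbr3 and Slc7a11 were thus nearly silent in WT crypts, with 8 to 42 reads of Cbr3 and 24 to 120 reads of Slc7a11 per WT library.

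**Figure D1:**
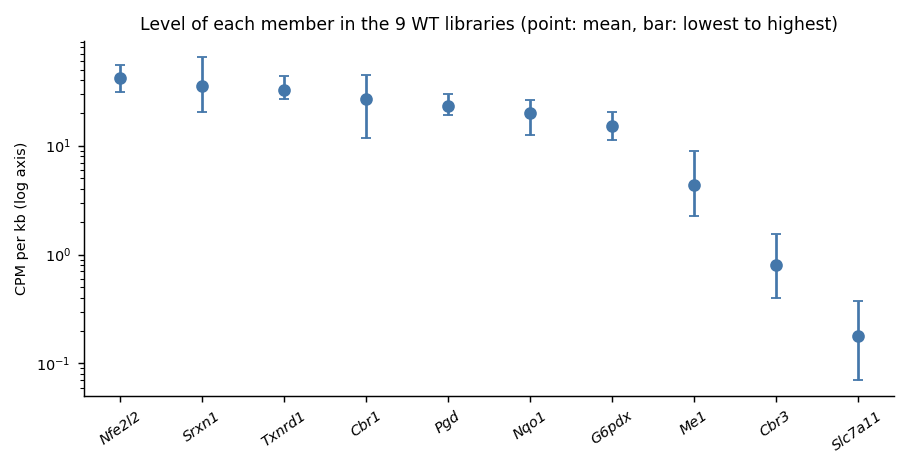
Levels of the 10 genes in WT crypts. The y axis is CPM per kb of gene length on a log scale, points are means over the 9 WT libraries of days 2, 7 and 14, and bars run from the lowest to the highest library. 7 genes sit between 15.1 and 41.8 CPM per kb, with Me1, Cbr3 and Slc7a11 below them.

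The WT libraries also differed among themselves, and most for the genes of low level. The coefficient of variation over the 9 WT libraries was 17.2% for Nfe2l2, 17.6% for Pgd and 17.9% for Txnrd1, which moved least. It was 45.4% for Me1, 52.9% for Cbr3 and 59.1% for Slc7a11. In WT day 2 the same library, replicate 3, was the highest for all 10 genes. In WT day 14 replicate 1 was the lowest for 9 of the 10, all but Slc7a11, for which it was the highest. In WT day 7 replicate 3 was the highest for 8 of the 10, and Nfe2l2 was lowest there.

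On day 2 the KO and WT libraries overlapped for all 10 genes, and none passed the test. This is the comparison that took no part in the choice of the genes. Over all genes tested 0.0328% passed on day 2, Prmt1 among them, and all 3 KO libraries lay above all 3 WT libraries for 4.3%. Nfe2l2 had 187, 182 and 191 CPM in the KO libraries of replicates 1, 2 and 3 and 179, 177 and 209 CPM in the WT libraries. Its log2 difference was -0.01 ± 0.17 (SE) with a 95% interval from -0.36 to 0.33. Cbr3 had 2.13, 0.742 and 1.73 CPM in KO and 0.574, 0.934 and 1.56 CPM in WT, a log2 difference of 0.56 ± 0.55 with an interval from -0.61 to 1.73. The groups overlapped for both genes, and the interval is wide for Cbr3. For the other 8 genes the log2 differences lay between -0.24 (Me1) and 0.95 (Slc7a11). Every adjusted p of the 10 genes was 0.999, and no gene of the 10 reached an unadjusted p of 0.05 with edgeR, beside 3.33% of all genes. None was called with DESeq2.

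On day 7 the KO crypts held more RNA of 9 of the 10 genes in every library. Nfe2l2 had 287, 221 and 172 CPM in KO replicates 1, 2 and 3 against 140, 142 and 139 CPM in WT. All 3 KO libraries lay above the WT libraries, which were close to each other while the KO libraries were spread. The log2 difference was 0.69 ± 0.17 (SE), a fold of 1.62, the smallest of the 10 genes. It was 0.51 without KO day 7 replicate 1 and 0.88 without KO day 7 replicate 3.

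Cbr3, a carbonyl reductase nearly silent in WT crypts, differed most. Cbr3 had 89.4, 52.6 and 29.8 CPM in the KO libraries of day 7 and 0.504, 0.511 and 0.569 CPM in WT. The lowest KO library held 682 reads of it and no WT library of any day more than 42. Its log2 difference was 6.74 ± 0.53, a fold of 107. Cbr1, which encodes the paralog, had 230, 160 and 120 CPM in KO and 51.8, 59.0 and 53.0 CPM in WT, a log2 difference of 1.64 ± 0.32. Nqo1, the quinone reductase NAD(P)H dehydrogenase 1, had 102, 71.1 and 40.7 CPM in KO and 19.6, 28.2 and 28.3 CPM in WT, a log2 difference of 1.49 ± 0.29. The KO and WT libraries did not overlap for any of the 3, and KO replicate 1 was the highest and replicate 3 the lowest for each. Cbr1 and Cbr3 are paralogs, and fragments aligned to more than 1 place were left out of the counts.

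Of the thiol genes, Txnrd1, the cytosolic thioredoxin reductase, had 454, 387 and 314 CPM in KO and 192, 200 and 216 CPM in WT on day 7, a log2 difference of 0.93 ± 0.17. Srxn1, sulfiredoxin, which restores overoxidized peroxiredoxins, had 271, 196 and 137 CPM in KO and 73.0, 90.0 and 98.6 CPM in WT, a log2 difference of 1.21 ± 0.27. All KO libraries were above all WT libraries for both genes. Slc7a11 had 12.1, 2.88 and 4.80 CPM in KO and 2.09, 2.49 and 5.26 CPM in WT. It was the exception, since its groups overlapped, and its log2 difference of 1.00 ± 0.55 came down to 0.24 without KO day 7 replicate 1.

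The NADPH-supplying enzymes were higher in all KO libraries on day 7. Me1 had 57.3, 42.3 and 32.3 CPM in KO and 11.4, 11.9 and 12.9 CPM in WT, a log2 difference of 1.86 ± 0.28 and the largest of the 10 after Cbr3. Pgd, 6-phosphogluconate dehydrogenase, had 414, 318 and 241 CPM in KO and 130, 127 and 166 CPM in WT, a log2 difference of 1.20 ± 0.20. G6pdx, glucose-6-phosphate dehydrogenase, had 106, 76.7 and 56.2 CPM in KO and 37.0, 34.5 and 44.7 CPM in WT, a log2 difference of 1.04 ± 0.21. No groups overlapped, and the lowest KO library of each gene was replicate 3. Of the 10 genes 9 had all 3 KO libraries above all 3 WT libraries, beside 15.9% of all genes, and since this comparison chose the genes nothing is read from that count. The median log2 difference of the 10 was 1.21 and that of all genes 0.02.

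**Figure D2:**
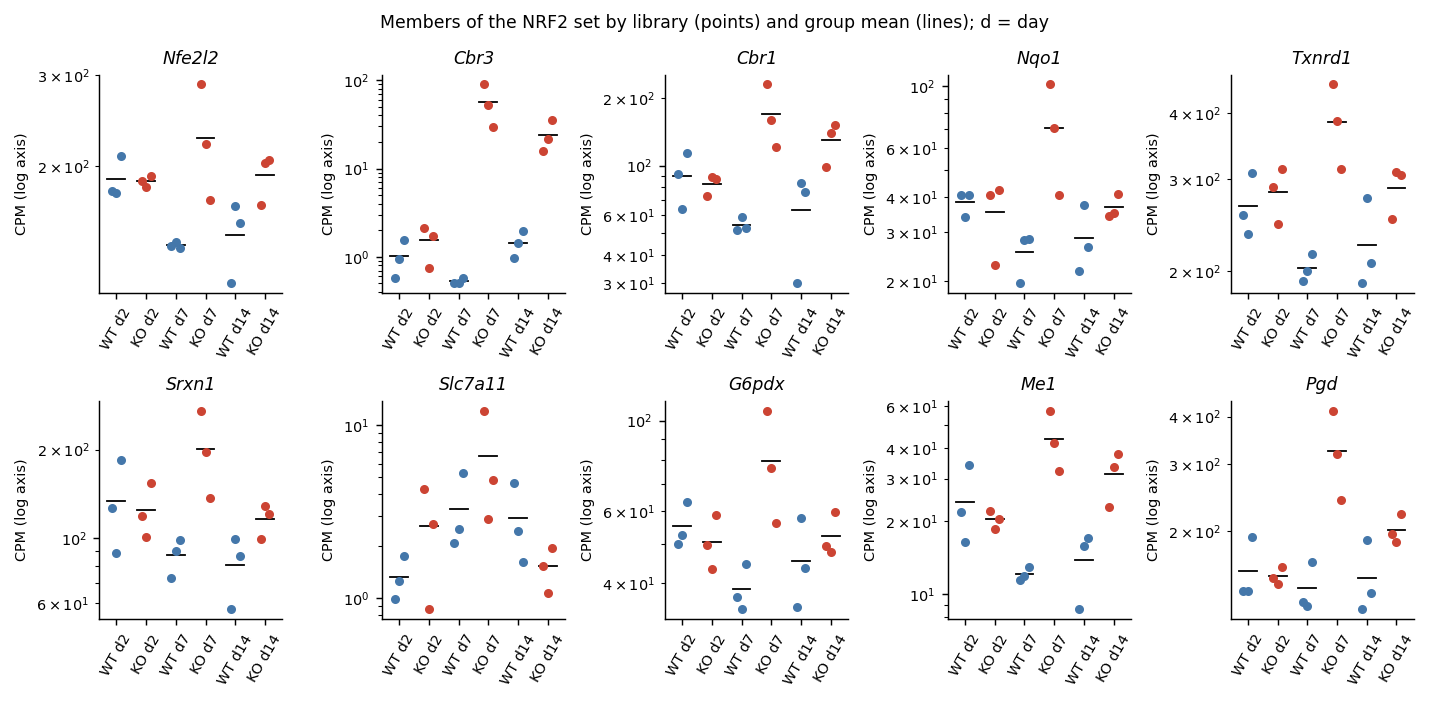
Level of each of the 10 genes in each library. The y axis of each panel is CPM on a log scale, points are libraries (WT in blue, KO in red; replicates 1, 2 and 3 from left to right within a group) and lines are group means. Points of KO day 7 lie above those of WT day 7 for every gene but Slc7a11.

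On day 14 the KO against WT differences of the 10 genes were smaller than on day 7 and differed in how much was left. Cbr3 had 15.7, 21.6 and 35.3 CPM in KO and 0.982, 1.42 and 1.95 CPM in WT. The groups were far apart, with a log2 difference of 4.01 ± 0.47 and a fold of 16.1. Me1 had 22.9, 33.5 and 38.0 CPM in KO and 8.61, 15.8 and 17.1 CPM in WT, a log2 difference of 1.17 ± 0.28. Cbr1 had 98.7, 140 and 151 CPM in KO and 30.0, 84.0 and 76.0 CPM in WT, a log2 difference of 1.03 ± 0.31. These 3 kept 59.5% (Cbr3), 62.7% (Me1) and 62.8% (Cbr1) of their log2 difference of day 7, and their libraries did not overlap. Nfe2l2 had 168, 203 and 205 CPM in KO and 119, 167 and 155 CPM in WT, a log2 difference of 0.38 ± 0.17 or 55.4% of that of day 7, with the lowest KO library just above the highest WT library.

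The others came closer to WT. Srxn1 kept 42.8% of its log2 difference of day 7, Txnrd1 39.4%, Pgd 35.3%, Nqo1 24.2% and G6pdx 19.1%. Of these only Srxn1 had all KO libraries (99.5, 129 and 121 CPM) above all WT libraries (57.0, 99.4 and 86.8 CPM), by a margin smaller than 1 CPM. Nqo1 had 34.3, 35.2 and 40.9 CPM in KO and 21.8, 37.4 and 26.4 CPM in WT, and G6pdx had 49.2, 47.7 and 59.8 CPM in KO and 34.9, 57.7 and 43.6 CPM in WT. In both, WT replicate 2 lay among the KO libraries. Slc7a11 was lower on average in KO, with 1.53, 1.07 and 1.96 CPM against 4.61, 2.45 and 1.62 CPM in WT, a log2 difference of -0.89 ± 0.62 with overlapping libraries. Of the 10 genes 5 had all KO libraries above all WT libraries, beside 12.4% of all genes, and this comparison also chose the genes, so nothing is read from that count.

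The libraries of WT day 14 decided part of these sizes. Without WT day 14 replicate 1, the lowest library for 9 of the genes, the log2 difference on day 14 was 0.26 for Nfe2l2, 0.70 for Cbr1, 0.33 for Srxn1 and 0.05 for G6pdx. Without WT day 14 replicate 2 it was 0.49 for Nfe2l2, 1.29 for Cbr1, 0.69 for Srxn1 and 0.41 for G6pdx. That of Slc7a11, for which replicate 1 was the highest WT library, went from -0.89 to -0.42 without it. The difference of Cbr3 stayed between 3.65 and 4.28 whichever library was left out.

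**Figure D3:**
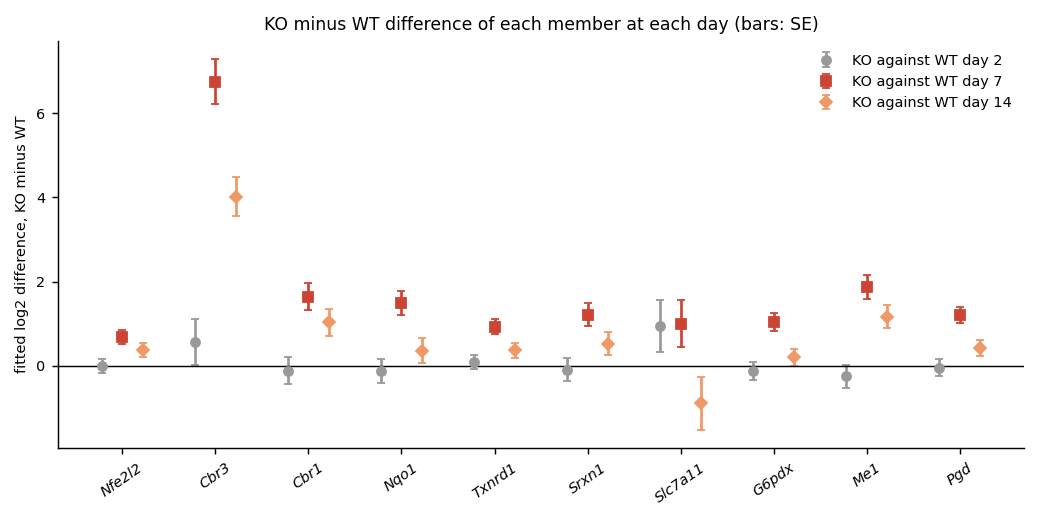
KO minus WT difference of each of the 10 genes. The y axis is the log2 difference fitted across all 18 libraries, gray circles are day 2, red squares day 7 and orange diamonds day 14, and bars are SE. Day 2 values lie near 0 except for Slc7a11 at 0.95 and Cbr3 at 0.56, and day 7 values run from 0.69 for Nfe2l2 to 6.74 for Cbr3.

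The change of the KO effect between days was described in the same fit. The day 7 effect exceeded the day 2 effect by 0.70 (log2) for Nfe2l2, 6.19 for Cbr3, 2.11 for Me1 and 1.75 for Cbr1, and by only 0.05 for Slc7a11. Day 14 minus day 7 was below 0 for all 10 genes, at -2.73 ± 0.72 (SE) for Cbr3, -1.13 ± 0.41 for Nqo1, -0.84 ± 0.29 for G6pdx and -0.31 ± 0.23 for Nfe2l2. In the order of the group means KO day 7 was first for all 10 genes. KO day 14 was second for 6 of them, while WT day 2 came second for Nqo1, Srxn1 and G6pdx and WT day 7 for Slc7a11.

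WT crypts were not constant over the days. The levels of 9 of the 10 genes were lower in WT day 7 than in WT day 2, by 1.00 (log2) for Me1, 0.72 for Cbr1, 0.61 for Srxn1 and Nqo1, and 0.42 for Nfe2l2. Slc7a11 differed the other way, by 1.30. For 7 genes all 3 day 7 libraries lay below all 3 day 2 libraries, beside 14.1% of all genes. The WT libraries of days 7 and 14 are also the controls of the comparisons that chose the genes, so the values and counts of all 3 WT comparisons are not independent of the choice, and nothing is read from them. None of the 10 passed the threshold (0.553% of all genes did), and 7 had an unadjusted p under 0.05 with edgeR, beside 22.4% of all genes. DESeq2 called 1 of the 10, Me1, and 1511 genes in all. Between WT day 14 and day 2 none of the 10 passed (1.61% of all genes did, and 3 of the 10 had an unadjusted p under 0.05, beside 20.01% of all genes), and between WT day 14 and day 7 none passed (0.0796% of all genes, and 1 of the 10 by the unadjusted p, beside 5.18% of all genes). DESeq2 called none in either comparison. Cell type markers differed between the same WT libraries. All 7 enterocyte markers (median log2 difference -1.20) and all 6 enteroendocrine markers (-0.49) were lower in WT day 7 than in day 2, 5 and 3 of them with an unadjusted p under 0.05 and none called with edgeR, and their part in the values of the 10 genes was not tested. WT day 14 against day 7 differed most for Cbr3, with 0.982 to 1.95 CPM against 0.504 to 0.569 CPM.

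Markers of cell types moved in the same libraries. The summed level of 7 enterocyte markers was 11032 to 17971 CPM in KO day 7 and 6352 to 9580 CPM in WT day 7, with 2 of the 7 markers called higher (Fabp1 and Fabp2) and 1 lower (Lct), and 5 higher by an unadjusted p under 0.05. It was 8898 to 18089 CPM in KO day 14 and 3289 to 9844 CPM in WT day 14. On day 2 it overlapped, at 13670 to 17691 CPM in KO and 10052 to 22788 CPM in WT. The library with the highest enterocyte sum of its group was also the one with the most of the 10 genes at their highest in 2 of 6 groups, and the lowest library was shared in 4 of 6 groups. With only 3 libraries per group some sharing arises without any link, so nothing is read from these counts. KO day 7 replicate 1, the highest library for all 10 genes, had the highest enterocyte sum of its group (17971 CPM) and the lowest sum of 4 stem cell markers, at 244 CPM beside 687 and 666 CPM in the other KO day 7 libraries and 1126 to 1535 CPM in WT day 7. The 5 Paneth cell markers were all called lower in KO day 7, with sums of 1237 to 3344 CPM against 7378 to 12583 CPM. All 6 enteroendocrine markers were called higher, with sums of 623 to 758 CPM against 276 to 300.3 CPM. On day 7, 3 of 4 stem cell markers, 3 of 5 goblet cell markers and 1 of 3 tuft cell markers were called lower, 1 of 6 stromal markers (Pecam1) higher, and none of the epithelial, proliferation, immune or erythroid markers was called with edgeR (unadjusted p under 0.05 for 1, 1, 0 and 0 of them). On day 14 all 6 enteroendocrine markers were again called higher, with sums of 740.3 to 892 CPM against 237 to 312 CPM, 1 of 7 enterocyte markers was called higher (5 higher by an unadjusted p under 0.05, median log2 difference 1.15), and 1 each of the stem cell, Paneth cell, goblet cell and proliferation markers was called lower, with an unadjusted p under 0.05 for 2 of 4, 5 of 5, 3 of 5 and 2 of 4 of them, all lower. Over all genes 7.11% were called higher and 10.2% lower on day 7, and 3.23% and 4.69% on day 14. An unadjusted p under 0.05 was reached by 29.9% of all genes on day 7 and 21.6% on day 14. No marker was at 0 in all libraries. In bulk crypts more cells of a type and more RNA per cell cannot be told apart, and the part of these shifts in the values of the 10 genes was not tested. For immune markers the day 7 sums overlapped, at 34.4 to 91.5 CPM in KO and 35.6 to 79.2 CPM in WT.

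**Figure D4:**
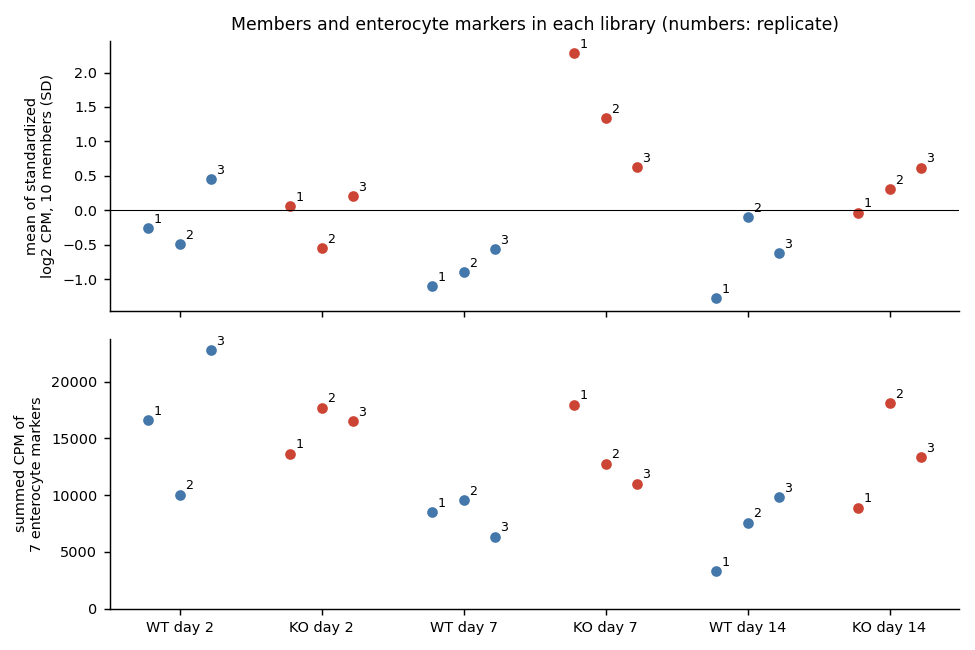
The 10 genes and enterocyte markers in each library. The upper panel gives the mean over the 10 genes of their log2 CPM standardized across the 18 libraries (in SD), the lower panel the summed CPM of 7 enterocyte markers, with WT in blue and KO in red and replicate numbers beside the points. KO day 7 replicate 1 is the highest in the upper panel at 2.28 SD, while the highest enterocyte sum, 22788 CPM, is that of WT day 2 replicate 3.

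The wider pathway was taken as 109 other genes in 6 lists, of which 106 could be tested, and Cbr2, G6pd2 and Aox1 had too few reads. The lists in this and the later paragraphs were chosen with earlier results of these data known. Their counts and p-values on days 7 and 14 are therefore not independent of those results. On day 7, 38 of the 106 were called higher and 10 lower in KO, beside 7.11% and 10.2% of all genes. The median log2 difference was 0.39, against 0.02 over all genes. On day 14, 10 were called higher and 7 lower, beside 3.23% and 4.69% of all genes. On day 2 none was called with edgeR, beside 0.0328% of all genes. An unadjusted p under 0.05 was reached by 4 (Me2, Sesn2, Abcc4 and Ephx1, outside the naming rule except Sesn2), beside 3.33% of all genes, so nothing is read from that count. The counts at day 7 rested in part on single libraries, since leaving out KO day 7 replicate 1 or WT day 7 replicate 1 each left 24 genes called higher.

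Of the 18 genes that hold, partner or oppose NRF2, 6 were called higher and 1 lower on day 7, beside 7.11% and 10.2% of all genes. Keap1 had 35.4, 33.2 and 34.5 CPM in KO day 7 and 37.1, 37.9 and 38.9 CPM in WT, a log2 difference of -0.14 ± 0.11 (adjusted p = 0.412), and -0.33 ± 0.11 on day 14 (adjusted p = 0.0789). The KO libraries lay below the WT libraries on both days, and neither difference passed, though on day 14 Keap1 did when only genes with a mean count of at least 50 were tested. The small MAF genes Mafg and Maff differed by 0.54 ± 0.16 and 0.55 ± 0.19 (adjusted p = 0.0220 and 0.0495). The repressor Bach1 differed by 0.54 ± 0.16 (adjusted p = 0.0266). The autophagy adaptor Sqstm1, which binds KEAP1, differed by 0.61 ± 0.16 (adjusted p = 0.0131) and Nfe2l1, a relative of Nfe2l2, by 0.59 ± 0.16 (adjusted p = 0.0163). Another relative, Nfe2l3, fell by 0.65 on the log2 scale (adjusted p = 0.0173). Each of these 6 calls was lost on leaving out at least 1 library of day 7. None of the 18 genes was called on day 14, beside 3.23% higher and 4.69% lower over all genes. On that day 7 had an unadjusted p under 0.05, beside 21.6% of all genes.

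Genes of glutathione synthesis and reduction were called on day 7 and not on day 14. Gclc, the catalytic subunit of glutamate-cysteine ligase, had 175, 104 and 86.7 CPM in KO day 7 and 45.8, 53.3 and 48.4 CPM in WT, a log2 difference of 1.31 ± 0.19 (adjusted p = 0.000121). Its modifier subunit Gclm rose by 1.02 ± 0.21 (adjusted p = 0.00236). Gsr, glutathione reductase, had 666, 493 and 357 CPM in KO and 149, 173 and 199 CPM in WT, a log2 difference of 1.54 ± 0.22 (adjusted p = 9.97e-05). The KO libraries lay above the WT libraries for all 3 genes, and the calls held under every alternative, each library left out included. On day 14 the differences were 0.33 for Gclc, 0.32 for Gclm and 0.26 for Gsr (adjusted p = 0.349, 0.402 and 0.553). Slc3a2, the partner chain of the SLC7A11 cystine transporter, had 160, 139 and 132 CPM in KO day 7 and 145, 141 and 147 CPM in WT, with a log2 difference of -0.01 ± 0.22. The neutral amino acid transporter Slc1a4 fell by 1.17 on day 7 (adjusted p = 0.0166), a call lost without KO day 7 replicate 1 or 2 or WT day 7 replicate 3 and with no filter on low counts. Of the 12 genes of this list 4 were called higher and 1 lower on day 7, beside 7.11% and 10.2% of all genes. None was called on day 14, beside 3.23% higher and 4.69% lower over all genes. By an unadjusted p under 0.05, 2 passed on day 14, beside 21.6% of all genes. The day 14 effect itself was not shown to differ from that of day 7. With the replicate block, Slc1a4 passed on day 14 as well (adjusted p = 0.0399, against 0.0810 without it).

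The other known NRF2 targets gave the highest share of calls among the 6 lists, with 17 of 25 called higher and none lower on day 7, beside 7.11% and 10.2% of all genes, and a median log2 difference of 1.12. Glutathione S-transferases led them. Gstm1 had 1757, 936 and 637 CPM in KO day 7 and 47.6, 45.6 and 71.3 CPM in WT, a log2 difference of 4.34 ± 0.46 (adjusted p = 1.70e-05). Gstm3 had 1031, 747 and 442 CPM in KO and 105, 92.3 and 113 CPM in WT, a log2 difference of 2.84 ± 0.40 (adjusted p = 0.000180). Gsta3 and Gsta2 rose by 3.14 ± 0.25 and 3.09 ± 0.38 (adjusted p = 1.93e-07 and 2.11e-05). Members of these families resemble each other in sequence, and fragments aligned to several of them were not counted, so their levels are uncertain. On day 14 all 4 were still called, at 3.37 for Gstm1, 2.23 for Gsta3, 2.18 for Gstm3 and 2.10 for Gsta2 (adjusted p = 0.000231, 1.89e-05, 0.00242 and 0.00259). In all, 6 of the 25 were called higher and 1 lower on day 14, beside 3.23% and 4.69% of all genes. Hmox1, the heme oxygenase that is a textbook NRF2 target, was low in all groups, with 0.934, 0.702 and 0.568 CPM in KO day 7 and 0.180, 0.256 and 0.438 CPM in WT (log2 difference 1.33 ± 0.84, adjusted p = 0.315). Its highest value was 5.43 CPM, in KO day 14 replicate 2.

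Of 15 other carbonyl and quinone reductases tested, 3 were called higher and 2 lower on day 7, beside 7.11% and 10.2% of all genes, and as many on day 14, beside 3.23% and 4.69%. Akr1b8, an aldo-keto reductase, had 167, 133 and 85.2 CPM in KO day 7 and 4.03, 9.01 and 9.15 CPM in WT, a log2 difference of 4.13 ± 0.38 (adjusted p = 3.65e-06). Akr1c19, of the same superfamily, rose by 2.47 ± 0.24 (adjusted p = 1.50e-06). Cbr4, a mitochondrial carbonyl reductase, had 2.49, 1.75 and 2.27 CPM in KO and 9.21, 11.6 and 9.85 CPM in WT, so it fell by 2.24 (SE 0.19, adjusted p = 3.02e-07). The aldo-keto reductase Akr7a5 fell by 1.85 (SE 0.19, adjusted p = 3.60e-06). All 4 genes were called on day 14 as well, at 2.92, 1.90, -1.97 and -1.66 in this order (adjusted p = 0.000184, 4.99e-05, 5.00e-06 and 2.73e-05).

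Of the other suppliers of NADPH, 2 of 16 tested genes were called higher and 4 lower on day 7, beside 7.11% and 10.2% of all genes, so that lower calls outnumbered higher ones over all genes too. On day 14 none was higher and 2 were lower, beside 3.23% and 4.69% of all genes. Pgls, 6-phosphogluconolactonase, which acts between G6PDX and PGD in the pentose phosphate pathway, had 15.8, 19.5 and 13.1 CPM in KO day 7 and 32.1, 42.4 and 37.5 CPM in WT, and fell by 1.20 (SE 0.16, adjusted p = 5.49e-05). The mitochondrial enzymes Me3, Idh2 and Nnt fell by 2.13, 0.90 and 0.89 (adjusted p = 0.000440, 0.000348 and 0.0210). On day 14 Pgls was lower by 1.05 and Idh2 by 0.67 (adjusted p = 0.000456 and 0.00709), while Me3 and Nnt did not pass (adjusted p = 0.337 and 0.171). The day 7 call of Nnt was lost without KO day 7 replicate 3 or WT day 7 replicate 2 or 3, and that of Idh2 on day 14 without WT day 14 replicate 2. Me3 passed on day 14 when KO day 14 replicate 2 was left out.

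In the thioredoxin list 6 of 20 were called higher and 2 lower on day 7, beside 7.11% and 10.2% of all genes, so the share called lower was near that of all genes. On day 14, 1 was higher and 2 were lower, beside 3.23% and 4.69% of all genes. Prdx6, a peroxiredoxin with 1 active cysteine, had 414, 317 and 207 CPM in KO day 7 and 118, 161 and 134 CPM in WT, a log2 difference of 1.18 ± 0.22 (adjusted p = 0.000978). Txn1, cytosolic thioredoxin, rose by 0.61 ± 0.17 (adjusted p = 0.0195), though KO day 7 replicate 3 at 334 CPM lay below WT replicate 2 at 348 CPM, and the call was lost without KO day 7 replicate 1 or 2 or WT day 7 replicate 1 or 3 and with only the groups compared. Sesn2, a stress-induced sestrin, rose by 0.80 ± 0.21 (adjusted p = 0.0120, lost without KO day 7 replicate 2 or WT day 7 replicate 2). Prdx4, the peroxiredoxin of the endoplasmic reticulum, and Txnrd3, a relative of Txnrd1, each fell by 1.21 (adjusted p = 0.000308 and 0.00134). On day 14 Prdx4 and Txnrd3 were lower by 0.98 and 0.84 (adjusted p = 0.00377 and 0.0282) and Prdx6 higher by 0.73 (adjusted p = 0.0433, and 0.0600 with the replicate block). The day 14 call of Prdx6 was lost on leaving out any 1 library of day 14 but WT replicate 2. That of Txnrd3 was lost without KO replicate 1 or 3 or WT replicate 2 or 3 of day 14, and with only the groups compared.

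**Figure D5:**
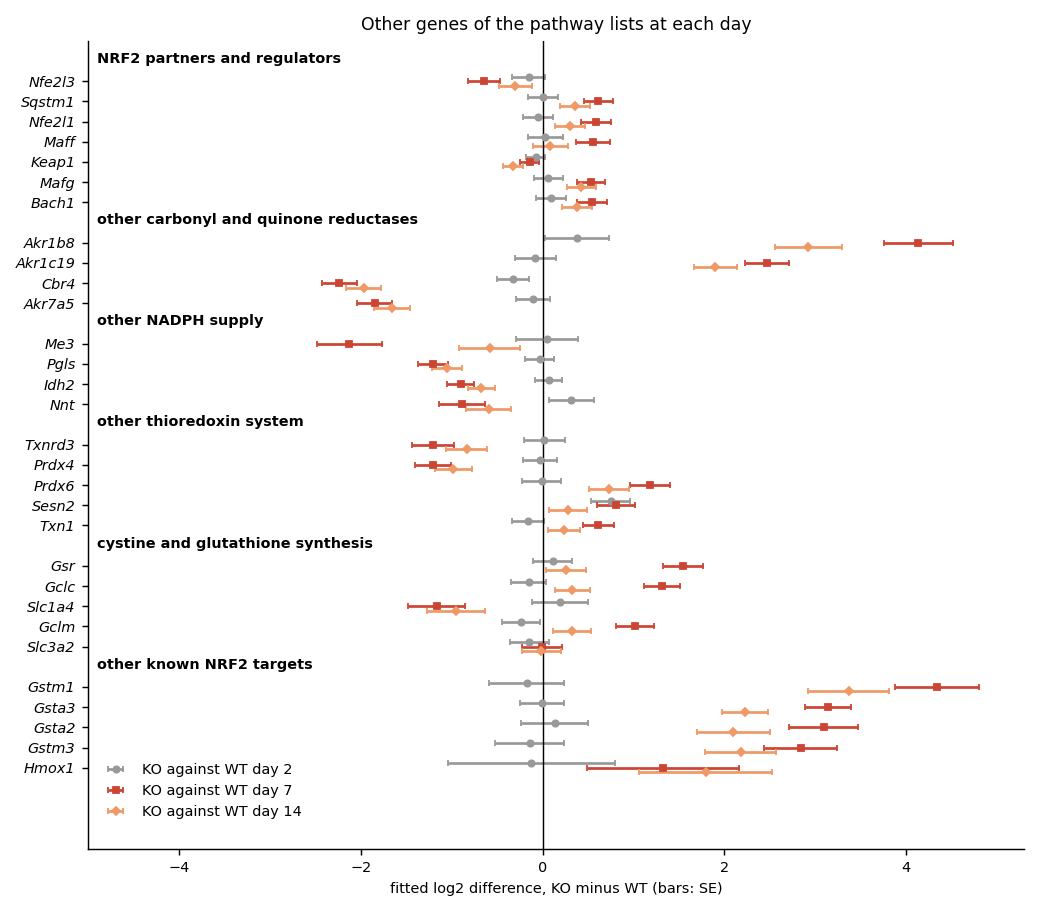
KO minus WT difference of the other pathway genes named in the text, by list. The x axis is the fitted log2 difference, gray circles are day 2, red squares day 7 and orange diamonds day 14, and bars are SE. Day 2 values lie between -0.33 for Cbr4 and 0.75 for Sesn2, and on day 7 the genes spread from -2.24 for Cbr4 to 4.34 for Gstm1.

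The difference between days was itself tested for these lists. The KO effect of day 7 differed from that of day 2 for 23 of the 106 other pathway genes (16 upward and 7 downward), beside 4.37% of all genes. For day 14 against day 2 it differed for 7 of them, beside 1.04% of all genes. Between days 14 and 7 no pathway gene was called, and 0% of all genes were. Of the 106 genes 12 had an unadjusted p under 0.05 there, beside 4.46% of all genes, 10 with a difference below 0 and 2 above (Me3 and Cbs). DESeq2 called none of the 106 and 2 genes in all. A change in the KO effect from day 7 to day 14 was thus not shown for any single gene of these lists by the adjusted test.

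Genes of fatty acid synthesis, which consumes NADPH, and targets of the stress factor ATF4, which also acts on Slc7a11, were looked at beside the pathway. Of 8 tested genes of fatty acid synthesis 3 were called higher on day 7 (7.11% of all genes were), namely the desaturases Scd1 and Scd2 and the citrate lyase Acly, by 4.41 ± 0.55, 1.16 ± 0.34 and 0.42 ± 0.13 (adjusted p = 0.000114, 0.0272 and 0.0275). Scd1 had 509, 153 and 105 CPM in KO day 7 and 6.94, 14.6 and 14.9 CPM in WT. On day 14, 1 of the 8 was called higher, beside 3.23% of all genes. It was Scd1, by 3.41 (adjusted p = 0.00129), while Scd2 and Acly did not pass (adjusted p = 0.497 and 0.126). Of 11 genes of the ATF4 list 7 were called higher on day 7 and 1 on day 14, beside 7.11% and 3.23% of all genes. The pseudokinase Trib3 and the factor Atf3 rose by 1.28 ± 0.36 and 1.18 ± 0.35 on day 7 (adjusted p = 0.0172 and 0.0260), both calls being lost without KO day 7 replicate 1 and on leaving out some other libraries of day 7, and those of Scd2 and Acly on leaving out some libraries, WT day 7 replicate 2 among them, and with no filter on low counts. The amino acid transporter Slc7a3 had 5.74, 3.86 and 4.98 CPM in KO day 7 against 0.144, 0 and 0.175 CPM in WT.

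The genes whose pattern over the 18 libraries was most like the mean of the 10 were found among 17070 other genes of at least 1 CPM, by the root mean square difference of standardized log2 CPM, in SD. They were Gm22133 (0.241), Nars (0.262), Ftl1 (0.266), Ckb (0.291), Gm10252 (0.296), Ahcyl2 (0.304), Gstp1 (0.317) and Eno1 (0.318). Ftl1, the ferritin light chain, and Gstp1 belong to the list of known NRF2 targets, while Nars encodes an asparaginyl-tRNA synthetase, Ckb a creatine kinase and Eno1 an enolase. Gm22133 and Gm10252 overlap Ftl1, so reads from the shared parts cannot be told apart and they are not separate cases. Ranked by Spearman correlation instead, 5 of the 8 were again among the first 8, led by Ckb (rho = 0.98 over 18 libraries). For Nfe2l2 alone the nearest were Ugdh (0.301), Pja1 (0.325), Gm43552 (0.329), Eno1 (0.333) and Pitpna (0.336), and Gm43552 overlaps Ugdh, an enzyme of the UDP-glucuronate pathway on the list of NRF2 targets. Only 1 of these 5 was among the first 5 by Spearman correlation. The points share the 6 groups, so the likeness carries the difference that chose the genes and is given without a test.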

How the data were processed

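The authors deposited 1 table of read counts per gene, made for total RNA libraries (100-base paired reads) with STAR 2.7.3 and featureCounts 1.6.4 per the submitters' processing notes, without strand, with fragments counted for each gene they overlap and multiply aligned fragments left out. The gene lengths used for levels per kb are the deposited lengths of that table (mm10, GENCODE release 23 for mouse per the file header, while the methods name another release). No unused sample columns were left (0). Each library was 1 mouse, so n is 3 mice per group.

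The genes described, the lists and the tests were chosen with earlier results of these data known. The 20 sex-linked genes that the study set aside were left out. Counts were filtered with filterByExpr, which left 21349 genes, normalized with TMM and fitted in edgeR 4.0.16 (limma 3.58.1, R 4.3.3) with 1 mean per group over all 18 libraries. Genes were tested by quasi-likelihood in edgeR, adjusted by Benjamini-Hochberg over all genes, and called at an adjusted p under 0.05. SE and 95% intervals come from the same fit. CPM are counts scaled to the TMM library size, and standardized values used log2 CPM with a prior count of 2. Promoter sequences are those of RefSeq (GRCm38.p6). The named genes are the 10, 10 other pathway genes fixed by name, and in each of 6 lists up to 4 genes (in 2 further lists up to 3) with the largest day 7 difference among those called without overlap of libraries. For Ddit3 and Nnt, names with 2 entries, the more abundant was used. The test was run on simulated data with known changes before use.

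Alternatives were DESeq2 1.42.0, its size factors, other filters on low counts, the sex list kept, a block for the replicate number, a fit restricted to the groups compared, and each library left out. The labels number the mice 1 to 3 in each group. The deviations of same-numbered KO and WT libraries from their group means had correlations of 0.227, 0.180 and 0.159 on day 14. They were 0.0478, 0.158 and 0.381 on day 2 and -0.159, 0.206 and 0.0787 on day 7. Same-numbered WT libraries of days 14 and 7 also gave positive values (0.0340, 0.157 and 0.0728). This check thus cannot show on which day, if any, the numbers pair the mice. The values given come from the fit without the block, and values with the block stand beside the day 14 calls that it changed.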

Additional observations from a re-analysis of the deposited data

Results flagged for a closer look

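The KO against WT difference (log2) differed between days by a test of the difference itself for 17 of the other pathway genes named. Most were named by the size of their day 7 difference, so nothing is read from that count. Over all genes 4.37% passed for day 7 minus day 2 and 1.04% for day 14 minus day 2. Day 7 exceeded day 2 for Akr1b8 by 3.75 (adjusted p = 0.000621), Akr1c19 by 2.55 (0.000230), Gstm1 by 4.52 (0.000564), Gsta3 by 3.15 (5.99e-05), Gsta2 by 2.96 (0.00320), Gstm3 by 2.98 (0.00585), Gclc by 1.47 (0.00442), Gsr by 1.43 (0.0116), Gclm by 1.26 (0.0198) and Prdx6 by 1.20 (0.0316). The day 7 effect was below that of day 2, as a difference of -1.91 for Cbr4 (adjusted p = 0.000257), -1.74 for Akr7a5 (0.00100), -2.17 for Me3 (0.0162), -1.17 for Pgls (0.00614), -0.97 for Idh2 (0.0116), -1.23 for Txnrd3 (0.0350) and -1.18 for Prdx4 (0.0181). Day 14 minus day 2 also passed for Akr1b8 at 2.54 (adjusted p = 0.0210), Akr1c19 at 1.98 (0.00473), Gstm1 at 3.54 (0.00775), Gsta3 at 2.23 (0.00343), Cbr4 at -1.64 (0.00380), Akr7a5 at -1.55 (0.00627) and Pgls at -1.02 (0.0324). The p-values come from the quasi-likelihood test of edgeR, adjusted by Benjamini-Hochberg.

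For Cbr1 and Me1 every KO library lay below the WT mean on day 2 and above it on days 7 and 14. The difference of the effects was 1.75 for day 7 minus day 2 and 1.14 for day 14 minus day 2 in Cbr1, and 2.11 and 1.41 in Me1. The sign on day 2 rested on WT day 2 replicate 3, without which the day 2 difference was 0.09 in both genes. This difference was not tested, because the genes were chosen by the later days.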

How the results depend on the processing

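The KO against WT log2 differences of the 10 genes on days 7 and 14 kept their direction under all alternatives run. On day 2, 6 of them, all near 0, changed sign on leaving out 1 library: Nfe2l2, Cbr1, Srxn1, Me1 and Pgd without WT day 2 replicate 3 (to 0.06, 0.09, 0.21, 0.09 and 0.12) and Nqo1 without KO day 2 replicate 2 (to 0.11). So did 7 between WT day 14 and day 7, and Pgd between each later WT day and day 2. None of these comparisons had called a gene of the 10. The numbers of genes called moved more. On day 2 (7 genes) they were 13 with DESeq2, 16 with no filter, 2 with a mean count of at least 50, 3 with the replicate block, 3 with only the groups compared, and 3 to 4 on leaving out a library. Leaving out a library gave 2051 to 4117 genes on day 7 (3690), the fewest without KO day 7 replicate 1, and 1041 to 1334 on day 14 (1690), the fewest without KO day 14 replicate 3. WT day 7 against day 2 (118) gave 1511 with DESeq2, 1012 with no filter, 494 at a mean of 50, 19 with the block, 576 with only those groups and 0 to 535 by library. WT day 14 against day 2 (343) gave 1383, 1011, 770, 173, 28 and 22 to 712 in the same order, and WT day 14 against day 7 (17) gave 49 with DESeq2, 59 with no filter, 5 with the block, 4 with only those groups and 0 to 10 by library. The cause was not tested.

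Of the 10 genes none was called between WT day 7 and day 2, 1 (Me1) with DESeq2, 1 with only those groups, and 0 to 1 by library (1 without WT day 2 replicate 2). Among the other pathway genes, 24 to 45 were called higher on day 7 (38) and 4 to 8 lower on day 14 (7, and 4 without WT day 14 replicate 2) on leaving out a library, 11 had a day 14 effect that differed from day 2 with DESeq2 (7), and 1 had a day 14 effect that differed from day 7 with no filter (0). Of 33 named genes called on day 7, 19 were called under every alternative that held them (Slc7a3 was not tested at a mean count of at least 50).

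With the replicate block, 3498 genes were called on day 7 and 1572 on day 14. Of the named genes the block ended the calls of Maff on day 7 and Prdx6 on day 14 and added that of Slc1a4 on day 14. For genes of low counts, Cbr3 and Slc7a11 in WT and Hmox1, depth limits the precision.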
